A study of Mus musculus with 18 samples.

Results

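The comparison described here set cultured mouse aortic smooth muscle cells that received an siRNA against Itgav and were then given PDGF-BB against cells that received a scramble siRNA, which has no intended target, and the same PDGF-BB. It rests on 6 of the series' 18 RNA-seq libraries, 3 with Itgav siRNA and PDGF-BB and 3 with scramble siRNA and PDGF-BB, and on every gene of the deposited table that passed a filter on low counts (15832 of 57180). The cells came from the thoracic aorta of C57BL/6 mice and were harvested after stimulation; the sources used here do not give doses, times, the age and number of animals or the siRNA sequence. Libraries with Itgav or scramble siRNA and TGF-β, and with Itgav or scramble siRNA and no stimulus (3 each), served to show where the siRNA effect under PDGF-BB differed from that in the other media. All groups were transfected, and no untransfected group is among them. A loss of Itgav and other effects of introducing its siRNA cannot be told apart in this design. Nothing states whether replicates came from separate cultures or animals, so a p-value measures only how far these libraries vary, which may be technical.

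Integrins are paired receptor chains that tie the cell to its matrix. Integrin αV, encoded by Itgav, joins with several β chains to bind proteins that carry an RGD motif, such as fibronectin and osteopontin, and the latent form of TGF-β, and inside the cell integrins are coupled to actin through focal adhesions. PDGF-BB acts through PDGF receptors, drives growth and migration of smooth muscle cells and is known to lower their contractile genes. Interferon-stimulated genes are switched on in most cells by type I interferon, and interferon is made when a cell's sensors meet double-stranded or otherwise foreign nucleic acid.

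Library totals were 17705072 to 20868459 counts in the 6 libraries. Scramble PDGF-BB replicate 1 stood apart from its group: on the second principal component of the 6 libraries, which held 11.3% of the variance, it lay at 37.1 against -23.2 and -18.0 for replicates 2 and 3. It had 19740 genes with a count, against 21024 and 21084 in the other scramble libraries, and the Itgav siRNA libraries had 21695 to 21998. The first component, with 70.4% of the variance, separated the Itgav siRNA libraries (46.8 to 52.3) from the scramble libraries (-55.9 to -44.6). Counts of list members called under PDGF-BB are therefore given also without scramble replicate 1 wherever the 2 counts differ. A gene was called when its Benjamini-Hochberg adjusted p in edgeR's quasi-likelihood test was under 0.05, and only called genes are said to have risen or fallen. Levels are CPM, counts scaled to a common library size, changes are log2 fold changes of Itgav siRNA over scramble siRNA with their standard error (SE), and levels of different genes are not compared. The sources used here do not say whether the counting used strand, so the values of genes that overlap another expressed gene on the opposite strand are uncertain: Tagln (with Pcsk7), Gnal (Mppe1), Irf7 (Phrf1), Erap1 (Cast), Cxcl10 (Art3), Rasa1 (Ccnh), Tgm2 (Rprd1b), Mcm7 (Cops6 and Ap4m1), Ccna2 (Exosc9), Cdc20 (Elovl1), Npc1 (Rmc1), Angptl7 (Mtor), Masp1 (Rtp4), Tln1 (Creb3), Irf3 (Bcl2l12) and Ctsb (Fdft1).

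Itgav itself (ENSMUSG00000027087, chromosome 2, 83724397 to 83806916, GRCm38, plus strand) stood at 19.1, 23.9 and 25.5 CPM in the Itgav siRNA libraries, against 307, 336 and 319 CPM in the scramble libraries. The groups did not overlap, and the remaining level was 7.13% of the scramble mean (log2 fold change -3.81 ± 0.087, adjusted p = 9e-19). Itgav was low in every library labelled with its siRNA, though the fall was smaller than in the other media, where the log2 fold changes were -4.28 under TGF-β and -4.39 in unstimulated cells (difference 0.47, adjusted p = 0.0044, and 0.58, adjusted p = 0.0025).

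In all, 9394 of 15832 genes (59.3%) were called, 4659 higher (29.4%) and 4735 lower (29.9%). The rises were the larger changes: 1271 genes (8.03%) were called and at least 2-fold higher, against 717 (4.53%) at least 2-fold lower, and 381 (2.41%) against 120 (0.758%) changed at least 4-fold. Without scramble replicate 1, 8795 genes (55.6%) were called, of which 8434 were called in the full set in the same direction and 0 in the opposite one, while 960 of the 9394 lost their call. The expression of 9807 genes (61.9%) did not overlap between the groups. Because so many genes changed, a list whose called share is near 59.3% says nothing about its members; the direction and size of the changes carry the description. The median log2 fold change of all genes tested was 0.01.

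**Figure D1:**
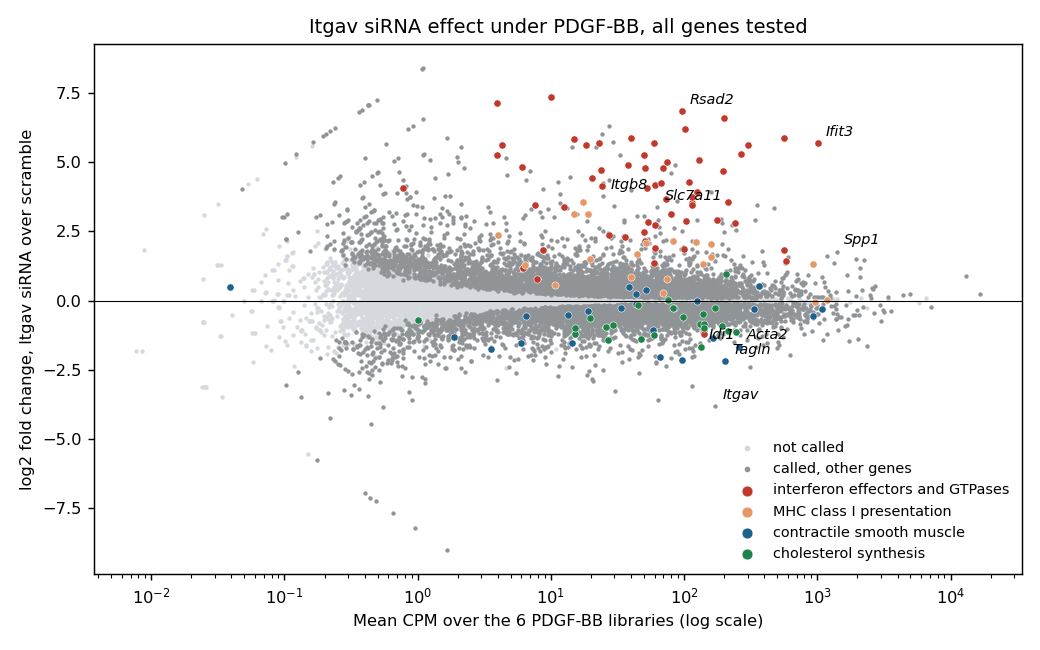
Each point is a gene: horizontal axis, mean CPM over the 6 PDGF-BB libraries on a log scale; vertical axis, log2 fold change of Itgav siRNA over scramble; grey points are called or not called as the legend says, and coloured points are list members. The interferon effectors and GTPases mostly sit at the top, Rsad2 among them at 6.84. Itgav lies at -3.81, and contractile and cholesterol genes are mostly below 0.

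The largest changes were ranked among called genes averaging 5 CPM or more, without overlap and called also without scramble replicate 1. Genes with Gm, Rik, AC, AL or BC names were left out. Of the genes so ranked, interferon-stimulated genes rose furthest. Rsad2, an antiviral enzyme also called viperin (chromosome 12), stood at 174, 255 and 148 CPM with Itgav siRNA, against 1.41, 1.44 and 2.13 CPM with scramble siRNA, 115-fold higher (log2 fold change 6.84 ± 0.3, adjusted p = 2.3e-14). Ifit3, which binds viral RNA and partner proteins, was at 2130, 2300 and 1500 CPM with Itgav siRNA against 35.4, 32.8 and 45.6 CPM with scramble siRNA (5.70 ± 0.2). Isg15, a ubiquitin-like modifier, was at 416, 416 and 299 CPM with Itgav siRNA against 14.1, 13.6 and 16.2 CPM with scramble siRNA (4.68 ± 0.3). For all 3 genes every Itgav siRNA library exceeded every scramble library. Ifi44, Oasl2, Ifit1, Gbp6, Ddx60 and Oas1a rose 97.6, 72.8, 59.5, 59.2, 53.9 and 52-fold, and Iigp1c and Phf11b rose 79.4 and 57.1-fold. Mx1, another interferon-stimulated gene, had 328, 629 and 277 counts with Itgav siRNA against 0, 1 and 6 with scramble siRNA. That is 176 times as many (95% interval 85.4 to 440, counting error only), and describes RNA and not a working protein. Oas1g, a relative of the oligoadenylate synthetases, had 485 counts with Itgav siRNA against 3 with scramble siRNA (ratio 162, interval 55 to 787). Genes with close copies (Ifit3 and Ifit3b, Iigp1 and Iigp1c, Oas1a and Oas1g, Tgtp1 and Tgtp2, the Gbp and H2 families) can share reads, and the counting of the authors may have split them, so those values belong to the family more firmly than to the single gene.

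Of the 45 tested antiviral effectors 44 were higher and 1 lower, where 29.4% and 29.9% of all genes were, with a median log2 fold change of 3.93. The exception was Ifi27, a mitochondrial protein, which was at 77.7, 85.6 and 95.8 CPM with Itgav siRNA against 219, 176 and 199 CPM with scramble siRNA (-1.20 ± 0.084, adjusted p = 5.3e-11). All 14 tested interferon-induced GTPases rose (median 4.2); Gbp7, Gbp9 and Iigp1 were among them (4.27 ± 0.19, 4.13 ± 0.17 and 5.63 ± 0.26). Of 20 MHC class I presentation genes, which cut and display peptides on the cell surface, 18 rose and none fell (median 1.56). H2-K1, the class I heavy chain, was at 169, 129 and 106 CPM with Itgav siRNA against 32.8, 27.5 and 29.7 CPM with scramble siRNA (2.17 ± 0.12). B2m, its light chain, was at 1530, 1290 and 1150 CPM with Itgav siRNA against 558, 523 and 522 CPM with scramble siRNA (1.31 ± 0.069). Nlrc5, which activates these genes, was at 27.1, 32.2 and 21.5 CPM with Itgav siRNA against 2.88, 2.99 and 3.28 CPM with scramble siRNA (3.14 ± 0.15). Psmb8, a proteasome subunit, was at 40.1, 35 and 27.5 CPM with Itgav siRNA against 4.80, 4.07 and 2.77 CPM with scramble siRNA (3.15 ± 0.2).

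Of 28 tested genes that sense nucleic acid or pass on the interferon signal, 21 rose and 4 fell (median 1.31). Irf7, which amplifies interferon production, was at 184, 166 and 110 CPM with Itgav siRNA against 6.97, 5.77 and 6.06 CPM with scramble siRNA (4.61 ± 0.22). The RNA sensor Rigi was at 326, 378 and 313 CPM with Itgav siRNA against 58.7, 63.8 and 61.4 CPM with scramble siRNA (2.47 ± 0.12) and the RNA sensor Ifih1 at 161, 186 and 143 CPM with Itgav siRNA against 12.4, 13.1 and 14.7 CPM with scramble siRNA (3.61 ± 0.18). The groups did not overlap for any of the 3. Irf3, Mavs, Sting1 and Stat3 fell (-0.69, -0.54, -0.28 and -0.12). Ifnb1, which encodes interferon β, had 13, 14 and 3 counts with Itgav siRNA and none with scramble siRNA, at least 10-fold higher against a floor of 3 counts over the group, so the low level cannot be measured more precisely.

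Chemokine and cytokine genes, the signals that recruit leukocytes, rose in 15 of 19 tested cases and fell in none, 14 rising without scramble replicate 1 (median 1.15 both times). Cxcl10, a target of interferon, was at 11.7, 17.8 and 11 CPM with Itgav siRNA against 0.555, 0.463 and 0.555 CPM with scramble siRNA (4.67 ± 0.3). Ccl7, which attracts monocytes, was at 47.4, 51.2 and 36.8 CPM with Itgav siRNA against 9.90, 7.41 and 7.86 CPM with scramble siRNA (2.43 ± 0.13). The membrane-bound chemokine Cx3cl1 was at 44.1, 45.7 and 42.5 CPM with Itgav siRNA against 26.9, 25.4 and 23.2 CPM with scramble siRNA (0.81 ± 0.081). Il6 and Csf1 were not called (0.01 and -0.05). Of 19 NF-κB feedback and adhesion genes 10 rose and 5 fell, with 9 rising without scramble replicate 1. Vcam1, an adhesion receptor for leukocytes, was at 1710, 1900 and 1750 CPM with Itgav siRNA, against 571, 617 and 581 CPM with scramble siRNA (1.60 ± 0.047). Tnfaip3, which shuts off NF-κB, was at 11.3, 10.2 and 10.9 CPM with Itgav siRNA against 23.2, 27.4 and 29.1 CPM with scramble siRNA (-1.30 ± 0.1), lower in every library.

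The promoters of interferon-stimulated genes are shown because the genes rose together. An interferon-stimulated response element (ISRE) is the DNA element through which type I interferon acts on these genes; its core was searched on both strands as GAAA, any 2 bases and GAAA again, in the 250 bases before each gene's start in RefSeq's GRCm38.p6 promoter table, and matches are in capitals. The capitals on the strand shown may be the reverse complement, and overlapping matches of 1 run are merged in Isg15, which holds 3.
Rsad2, chr12:26456453-26456702, minus strand: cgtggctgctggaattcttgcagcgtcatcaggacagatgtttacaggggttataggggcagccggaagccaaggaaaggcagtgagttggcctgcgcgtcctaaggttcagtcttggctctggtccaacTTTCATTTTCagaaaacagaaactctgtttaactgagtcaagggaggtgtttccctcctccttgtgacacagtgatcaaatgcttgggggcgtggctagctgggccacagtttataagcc
Ifit3, chr19:34583279-34583528, plus strand: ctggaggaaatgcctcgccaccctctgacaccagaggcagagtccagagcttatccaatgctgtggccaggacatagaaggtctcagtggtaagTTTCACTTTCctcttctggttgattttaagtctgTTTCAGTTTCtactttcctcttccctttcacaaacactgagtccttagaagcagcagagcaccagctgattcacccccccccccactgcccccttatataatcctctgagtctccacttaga
Isg15, chr4:156200819-156201068, minus strand: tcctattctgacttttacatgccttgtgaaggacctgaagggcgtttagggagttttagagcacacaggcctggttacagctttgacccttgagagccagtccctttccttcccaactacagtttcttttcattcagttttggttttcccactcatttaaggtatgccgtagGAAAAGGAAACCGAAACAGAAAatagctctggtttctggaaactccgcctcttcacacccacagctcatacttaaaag
Ankrd1 and Ccn1 fell and carry the core of the TEAD motif, GGAATG on either strand, in capitals.
Ankrd1, chr19:36119845-36120094, minus strand: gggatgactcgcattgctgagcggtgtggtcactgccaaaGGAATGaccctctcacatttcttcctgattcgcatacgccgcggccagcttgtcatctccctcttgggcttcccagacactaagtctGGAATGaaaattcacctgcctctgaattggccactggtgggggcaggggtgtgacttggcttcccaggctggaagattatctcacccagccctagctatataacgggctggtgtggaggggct
Ccn1, chr3:145649986-145650235, minus strand: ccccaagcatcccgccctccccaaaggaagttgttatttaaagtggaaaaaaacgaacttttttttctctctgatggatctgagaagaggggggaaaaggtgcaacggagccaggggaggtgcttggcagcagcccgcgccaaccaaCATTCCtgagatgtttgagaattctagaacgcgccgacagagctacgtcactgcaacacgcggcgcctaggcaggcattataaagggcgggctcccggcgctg
The ISRE core begins 120 bases before the start in Rsad2, 156 and 122 in Ifit3 and 78, 72 and 66 in Isg15, and the TEAD core 210 and 123 in Ankrd1 and 103 in Ccn1. Of the tested genes 71.2% have an entry in that table, under 80%, so the share is void as a property of the tested genes and the counts below hold only for the matched promoters. The ISRE core stood in 3.20% of 11202 matched tested promoters, in 20.3% of the 231 matched genes called at least 4-fold higher and in 1.42% of the 492 called at least 2-fold lower. By list, it stood in 18 of 34 antiviral effectors and in 9 of 10 GTPases. Other lists that mostly rose had it less often: 2 of 22 sensing and signalling, 3 of 17 MHC class I and 1 of 13 chemokine and cytokine genes. The TEAD core stood in 13.2% of matched tested promoters and in 17.7% of those of genes at least 2-fold lower. It stood in 12.1% of those at least 2-fold higher, 14.7% of those at least 4-fold higher and 13.7% of those not called. A match describes the letters only and does not show binding.

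Of 18 tested integrin chains 13 rose and 3 fell, Itgav among them (median 0.54; without scramble replicate 1, 14 and 3, median 0.65). Itgb8, a partner of αV in the activation of TGF-β, stood at 40.4, 49.9 and 47.9 CPM with Itgav siRNA, against 3.33, 3.19 and 3.56 CPM with scramble siRNA, 13.7-fold higher (3.77 ± 0.14, adjusted p = 1.2e-15). Itgb3, the β chain of the vitronectin receptor, was at 80.1, 87.7 and 83.3 CPM with Itgav siRNA against 32.9, 41.6 and 35.7 CPM with scramble siRNA (1.19 ± 0.063). The partner chains Itgb1, Itgb5 and the fibronectin receptor chain Itga5 rose less (0.37 ± 0.036, 0.38 ± 0.04 and 0.47 ± 0.05), and Itga3, a laminin receptor chain, and Itga11, a collagen receptor chain, fell (-0.81 ± 0.044 and -0.84 ± 0.083). Every chain named here was separate between the groups.

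**Figure D2:**
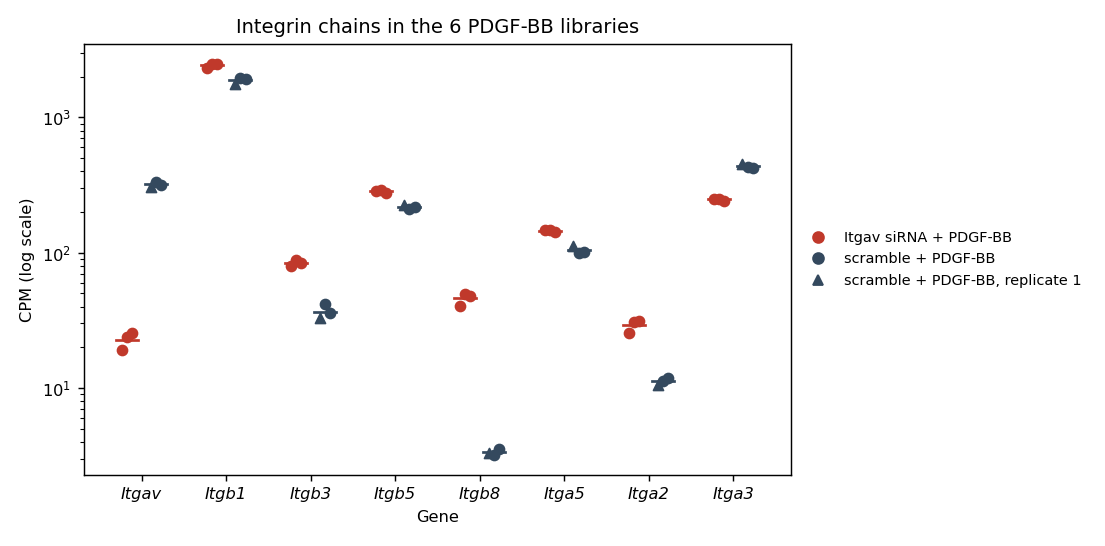
Horizontal axis, integrin chain; vertical axis, CPM on a log scale; each point is a library, each bar a group mean, with Itgav siRNA left of scramble siRNA and scramble replicate 1 as a triangle. The Itgav siRNA points lie below the scramble points in Itgav and Itga3 and above them in Itgb1, Itgb3, Itgb5, Itgb8, Itga5 and Itga2.

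Proteins that bind αV integrins rose in 10 of 18 tested cases and fell in 4 (median 0.49). Spp1, which encodes osteopontin and also marks modulated smooth muscle, stood at 2200, 2140 and 2140 CPM with Itgav siRNA, against 621, 578 and 695 CPM with scramble siRNA (1.77 ± 0.068, adjusted p = 2.5e-15). Tgfbi, an adhesion protein induced by TGF-β, was at 33.1, 37.4 and 35.8 CPM with Itgav siRNA against 8.23, 7.05 and 7.03 CPM with scramble siRNA (2.25 ± 0.11). Postn, periostin, was at 63.1, 68.3 and 61.3 CPM with Itgav siRNA against 20.6, 27.2 and 25.9 CPM with scramble siRNA (1.39 ± 0.091). Fn1, fibronectin, was at 14600, 18500 and 17700 CPM with Itgav siRNA against 8300, 10100 and 8750 CPM with scramble siRNA (0.90 ± 0.077). None of these 4 overlapped between the groups. Ltbp1 and Tgfb1 rose as well (0.58 ± 0.044 and 0.79 ± 0.061). Ccn1, a matricellular protein induced through YAP, fell to 54.6, 50.8 and 55.5 CPM with Itgav siRNA, against 178, 173 and 178 CPM with scramble siRNA (-1.72 ± 0.043).

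Of 34 focal adhesion genes 25 fell and 5 rose (median -0.47; 27 and 5 without scramble replicate 1). Fhl2, an adaptor at adhesions, stood at 13.9, 10.7 and 10.6 CPM with Itgav siRNA against 42.5, 40.1 and 42.8 CPM with scramble siRNA (-1.83 ± 0.081). Fermt2, the integrin activator kindlin-2, was at 66.9, 64 and 67.3 CPM with Itgav siRNA against 148, 156 and 151 CPM with scramble siRNA (-1.20 ± 0.042). Actn4, an actin crosslinker, was at 296, 311 and 304 CPM with Itgav siRNA against 698, 727 and 693 CPM with scramble siRNA (-1.22 ± 0.036). Parva, a partner of integrin-linked kinase, was at 185, 194 and 196 CPM with Itgav siRNA against 411, 404 and 403 CPM with scramble siRNA (-1.08 ± 0.038). All siRNA libraries lay below the scramble libraries for each. Ptk2 (focal adhesion kinase), Zyx and Tln1 fell (-0.77 ± 0.043, -0.84 ± 0.049 and -0.46 ± 0.042). Kank4, low throughout, had 2 counts with Itgav siRNA against 52 with scramble siRNA (ratio 0.0385, interval 0.00454 to 0.146).

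Of 26 contractile smooth muscle genes 19 fell and 4 rose (median -0.54). Acta2, smooth muscle actin, stood at 125, 121 and 128 CPM with Itgav siRNA against 379, 397 and 403 CPM with scramble siRNA (-1.66 ± 0.043, adjusted p = 5.4e-18). Tagln, an actin-binding protein, was at 71.7, 71.3 and 77.2 CPM with Itgav siRNA against 336, 320 and 343 CPM with scramble siRNA (-2.18 ± 0.059). Myl9, a myosin light chain, was at 37.4, 34.2 and 36.2 CPM with Itgav siRNA against 174, 141 and 155 CPM with scramble siRNA (-2.13 ± 0.088). Mcam, a cell adhesion protein, was at 26.7, 23.1 and 28.5 CPM with Itgav siRNA against 103, 104 and 111 CPM with scramble siRNA (-2.03 ± 0.063). Cnn1, calponin, was at 2.69, 2.53 and 4.10 CPM with Itgav siRNA against 7.52, 9.73 and 9.25 CPM with scramble siRNA (-1.52 ± 0.17). For all 5 the groups were separate. Myh11, the smooth muscle myosin heavy chain, was called (-0.55 ± 0.15, adjusted p = 0.0029) although its libraries overlapped, at 4.99, 4.32 and 6.71 CPM with Itgav siRNA and 7.63, 9.47 and 6.24 CPM with scramble siRNA. The regulators Myocd and Srf fell (-1.30 ± 0.2 and -1.22 ± 0.074), and Mrtfa fell while Mrtfb rose (-0.27 and 0.38).

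**Figure D3:**
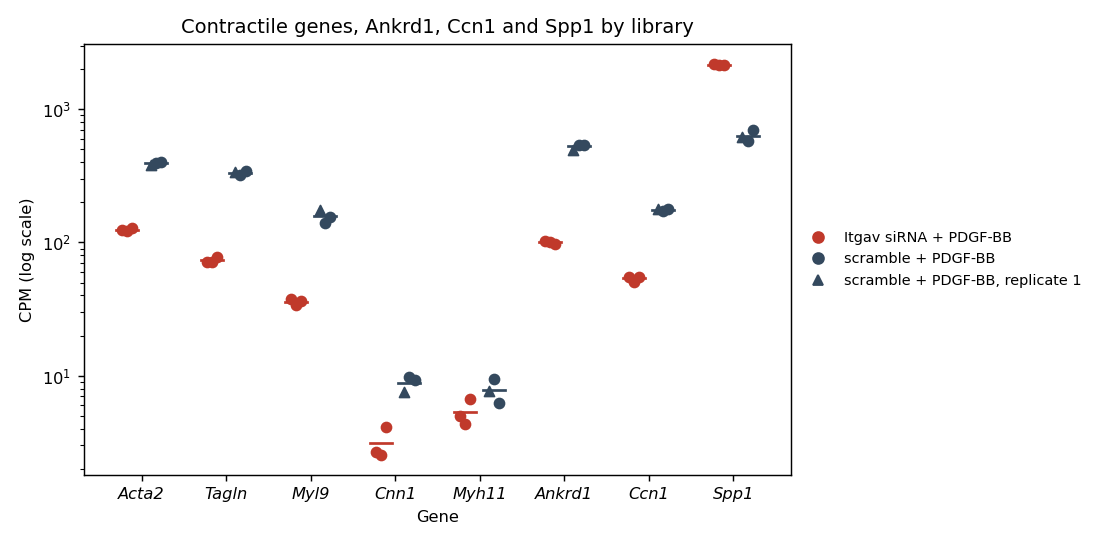
Horizontal axis, gene; vertical axis, CPM on a log scale; each point is a library, each bar a group mean, with Itgav siRNA left of scramble siRNA and scramble replicate 1 as a triangle. Acta2, Tagln, Myl9, Cnn1, Ankrd1 and Ccn1 are lower and Spp1 higher with Itgav siRNA without overlap, and Myh11 overlaps.

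Of the contractile smooth muscle genes, Acta2, Tagln, Myl9, Mcam, Cnn1 and Myh11 were detected in every PDGF-BB library, though Cnn1 and Myh11 were low. On that list of 28 genes, 2 were not tested. Some markers of other cell types were called too. The share called was 54.5% of tested endothelial, 66.7% of mesothelial and 66.7% of adventitial fibroblast markers. These shares are near the 59.3% of all genes, so the number called says nothing about these markers. In bulk RNA, fewer cells of a type and less RNA per cell cannot be told apart. Mesothelial markers summed to 81.6 to 90 CPM with Itgav siRNA against 194 to 219 CPM with scramble siRNA, with 4 of 6 tested lower (Upk1b -1.99), and endothelial markers to 96.5 to 115 CPM with Itgav siRNA against 125 to 144 CPM with scramble siRNA, with 6 of 11 lower. Adventitial fibroblast markers, mostly Gsn, summed to 1090 to 1150 CPM with Itgav siRNA against 962 to 1050 CPM with scramble siRNA, with 5 of 9 tested higher, Pdgfra among them, and 1 lower. Adipocyte markers summed to 27.6 to 28.2 CPM with Itgav siRNA against 41.2 to 43.5 CPM with scramble siRNA. Of 2 tested, 1 was lower and 0 higher (1 lower and 1 higher without scramble replicate 1). Cidec and Lep were at 0 counts in both groups. Cardiomyocyte markers summed to 6.03 to 6.44 CPM with Itgav siRNA against 7.67 to 9.62 CPM with scramble siRNA, mostly Tnnt2. Of 2 tested, 1 was higher and 1 lower, and Myh6 was at 0 counts in both groups. Ryr2 had 27 counts with Itgav siRNA against 1 with scramble siRNA. Schwann cell markers summed to 13.8 to 15.6 CPM with Itgav siRNA against 15.9 to 18 CPM with scramble siRNA. Of 3 tested, 1 was higher and 1 lower. Macrophage markers summed to 18.7 to 20.8 CPM with Itgav siRNA against 19.9 to 20.5 CPM with scramble siRNA, with Adgre1, C1qb and Itgam at 0 counts with Itgav siRNA and C1qa at 0 with scramble siRNA. Lymphocyte and erythroid markers summed to at most 0.276 and 0.107 CPM with Itgav siRNA and 0.0515 and 0.416 CPM with scramble siRNA, and none was tested. Their part in the contractile and other results was not tested.

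YAP and TEAD targets, which respond to tension through adhesions, fell in 15 of 25 cases and rose in 6 (median -0.37; 15 and 4 without scramble replicate 1). Ankrd1, a classical target, stood at 103, 101 and 96.7 CPM with Itgav siRNA, against 492, 542 and 542 CPM with scramble siRNA (-2.39 ± 0.049, adjusted p = 2.7e-19). Wwc1, which acts in the Hippo pathway, was at 26, 26.8 and 25 CPM with Itgav siRNA against 82.9, 79 and 82.6 CPM with scramble siRNA (-1.65 ± 0.052). Amotl2, which does too, was at 48.6, 42.8 and 41.2 CPM with Itgav siRNA against 110, 106 and 99.6 CPM with scramble siRNA (-1.25 ± 0.058). In all 3 the siRNA libraries were the lower ones. F3, tissue factor, rose (1.52).

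Among the genes of PDGF signalling, 10 of 15 ligands, receptors and adaptors rose and 4 fell (3 without scramble replicate 1; median 0.30). Pdgfra stood at 16.3, 17.2 and 18.6 CPM with Itgav siRNA against 6.26, 8.60 and 6.89 CPM with scramble siRNA (1.26 ± 0.11). Pdgfrb, the main receptor for PDGF-BB on smooth muscle, was at 326, 339 and 334 CPM with Itgav siRNA against 298, 318 and 293 CPM with scramble siRNA, a change of 0.13 ± 0.037 (adjusted p = 0.0037). The groups of both receptors did not overlap, and the rise of Pdgfrb was the smaller. Nrp1, a co-receptor, and Rasa1, which turns RAS off, rose (1.07 ± 0.069 and 1.02 ± 0.066), and the adaptor Shc1 fell (-0.55 ± 0.042). Of 36 ERK targets and feedback genes 17 rose and 12 fell (median 0.10; 16 rose without scramble replicate 1). Ccnd1, cyclin D1, was at 2200, 2370 and 2300 CPM with Itgav siRNA against 3670, 3910 and 3720 CPM with scramble siRNA (-0.72 ± 0.035) and the receptor Epha2 fell (-0.76 ± 0.043), while Etv1 and Ier3 rose (0.93 ± 0.06 and 0.98 ± 0.088). The growth factor Areg was at 52 counts with Itgav siRNA against 5 with scramble siRNA (ratio 10.4, interval 4.19 to 33.4).

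In the DNA replication and G1/S list 22 of 29 fell and Mcm6 rose (median -0.42). In the G2/M and mitosis list 22 of 28 fell and none rose (median -0.38; 23 without scramble replicate 1). Mki67, a marker of dividing cells, was at 97.7, 86.7 and 97.7 CPM with Itgav siRNA against 140, 147 and 141 CPM with scramble siRNA (-0.60 ± 0.068, adjusted p = 1.1e-07). Ccne1, cyclin E1, was at 14.2, 12.7 and 11.2 CPM with Itgav siRNA against 25.8, 24.7 and 23.9 CPM with scramble siRNA (-0.96 ± 0.091). Cdk1, the mitotic kinase, was at 42.3, 37.1 and 38.6 CPM with Itgav siRNA against 56.8, 55.6 and 60 CPM with scramble siRNA (-0.55 ± 0.06). The siRNA libraries were below the scramble libraries in each. Mcm5, Mcm7, Ccna2, Kif23 and Cdc20 fell (-0.66 ± 0.074, -0.76 ± 0.069, -0.57 ± 0.065, -0.87 ± 0.094 and -0.56 ± 0.068). Among p53 targets 12 of 23 fell and 5 rose (median -0.14). The pro-apoptotic Pmaip1 fell to 39.2, 38.5 and 32.7 CPM with Itgav siRNA, against 133, 138 and 130 CPM with scramble siRNA (-1.86 ± 0.056), and Gadd45a rose to 79.3, 83.1 and 79 CPM with Itgav siRNA against 21.8, 21.8 and 21.6 CPM with scramble siRNA (1.89 ± 0.056), as did Gdf15 (1.57 ± 0.1). Cdkn1a, p21, was down by a small amount (-0.13 ± 0.038).

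Of 24 cholesterol synthesis genes 21 fell and Insig1 rose (median -0.90). Idi1, an isomerase of the mevalonate pathway, was at 58.2, 67.3 and 69.1 CPM with Itgav siRNA against 190, 214 and 211 CPM with scramble siRNA (-1.66 ± 0.062). Hmgcs1, an early enzyme of the pathway, was at 146, 160 and 157 CPM with Itgav siRNA against 328, 345 and 348 CPM with scramble siRNA (-1.14 ± 0.043). Msmo1, a late sterol oxidase, was at 154, 154 and 156 CPM with Itgav siRNA against 339, 329 and 341 CPM with scramble siRNA (-1.12 ± 0.04). Sc5d, a late sterol desaturase, was at 129, 138 and 142 CPM with Itgav siRNA against 288, 296 and 294 CPM with scramble siRNA (-1.10 ± 0.045). The groups of each were separate. Insig1, which restrains the pathway's regulator, was at 260, 282 and 275 CPM with Itgav siRNA against 145, 138 and 139 CPM with scramble siRNA (0.95 ± 0.046). Of 23 lysosomal genes 17 rose and 4 fell (median 0.31), with Ctsb at 1360, 1400 and 1360 CPM with Itgav siRNA against 883, 851 and 837 CPM with scramble siRNA (0.68 ± 0.039) and Npc1 and Lipa, which move and release cholesterol in lysosomes, higher (0.89 ± 0.056 and 0.89 ± 0.044).

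Of 45 tested matrix genes 25 rose and 9 fell (median 0.20). Col3a1, a fibrillar collagen, stood at 521, 609 and 554 CPM with Itgav siRNA against 198, 235 and 212 CPM with scramble siRNA (1.39 ± 0.064). Emilin1, a glycoprotein of elastic fibres, was at 216, 229 and 215 CPM with Itgav siRNA against 127, 107 and 104 CPM with scramble siRNA (0.97 ± 0.058). Sparc, which binds collagen, was at 2290, 2300 and 2180 CPM with Itgav siRNA against 3110, 3040 and 2990 CPM with scramble siRNA (-0.43 ± 0.028). Eln, elastin, was at 137, 159 and 159 CPM with Itgav siRNA against 267, 266 and 252 CPM with scramble siRNA (-0.79 ± 0.051). These 4 did not overlap, while Col1a1 did and was not called (0.06 ± 0.058, adjusted p = 0.39). Lum, with 95 counts with Itgav siRNA against 5 with scramble siRNA (ratio 19, interval 7.87 to 59.9), is low. Of 21 crosslinking and collagen-processing genes 8 rose and 10 fell (9 without scramble replicate 1), Tgm2 and the lysyl oxidase Lox falling (-0.69 ± 0.043 and -0.69 ± 0.065) and Plod1 and Pcolce2 rising (0.67 ± 0.051 and 0.80 ± 0.054). Proteases and inhibitors rose in 15 of 33 cases and fell in 8 (14 and 8 without scramble replicate 1). Plau, urokinase, was at 21.8, 19.6 and 23.3 CPM with Itgav siRNA against 102, 101 and 98 CPM with scramble siRNA (-2.22 ± 0.068). The inhibitor Timp3 was at 3160, 3420 and 3340 CPM with Itgav siRNA against 1160, 1240 and 1150 CPM with scramble siRNA (1.48 ± 0.048). The collagenase Mmp13 rose to 59.3, 72.9 and 55.5 CPM with Itgav siRNA against 9.90, 8.65 and 6.66 CPM with scramble siRNA (2.90 ± 0.13).

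Of 15 TGF-β ligands, receptors and signalling genes 9 rose and 4 fell (8 and 4 without scramble replicate 1); the receptor Tgfbr1 was at 161, 174 and 176 CPM with Itgav siRNA against 57.7, 62.1 and 61.4 CPM with scramble siRNA (1.5 ± 0.055) and the co-receptor Tgfbr3 rose (1.09 ± 0.082). TGF-β and SMAD targets fell in 14 of 27 cases and rose in 8 (7 without scramble replicate 1), Tspan2 at 13.3, 13.8 and 13.6 CPM with Itgav siRNA against 48.8, 51.4 and 51.7 CPM with scramble siRNA (-1.90 ± 0.071) and Tgfb1i1 (-0.92 ± 0.05) falling and Bhlhe40 (1.71 ± 0.079) rising. Of 16 modulated smooth muscle genes 11 rose and 3 fell (median 0.37), with Mgp, an inhibitor of calcification, at 1960, 1920 and 1890 CPM with Itgav siRNA against 820, 703 and 725 CPM with scramble siRNA (1.36 ± 0.06) higher and S100a4 at 1180, 1070 and 1110 CPM with Itgav siRNA against 2270, 1960 and 2110 CPM with scramble siRNA (-0.91 ± 0.064) lower. Klf4, a regulator of this state, changed by 0.15 ± 0.045 (adjusted p = 0.0077), a call lost with no filter on low counts (adjusted p = 0.053). Of 14 osteochondrogenic genes 5 rose and 4 fell (median 0.08), and the 64.3% called is near the 59.3% of all genes. Among them Sox9 rose, at 89.4, 90.2 and 85.9 CPM with Itgav siRNA against 45, 45.6 and 45 CPM with scramble siRNA (0.97 ± 0.047), and Col2a1 fell (-1.65 ± 0.081). Spp1 and Mgp belong to both the modulated and the osteochondrogenic list.

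Xenobiotic and NRF2 genes, which handle oxidants and foreign compounds, had 13 of 20 members rise and 5 fall (median 1.05). Hmox1, heme oxygenase, stood at 600, 616 and 567 CPM with Itgav siRNA against 186, 166 and 156 CPM with scramble siRNA (1.81 ± 0.063). Gclc, which makes glutathione, was at 123, 124 and 132 CPM with Itgav siRNA against 39.1, 39.4 and 41.2 CPM with scramble siRNA (1.66 ± 0.058). Srxn1, which restores peroxiredoxins, was at 111, 112 and 102 CPM with Itgav siRNA against 37.7, 40.5 and 39.4 CPM with scramble siRNA (1.47 ± 0.054), while Aldh1a1, which makes retinoic acid, fell (-1.22 ± 0.037). Slc7a11, a cystine importer counted in the ATF4 and ER stress list, was at 104, 121 and 120 CPM with Itgav siRNA against 8.74, 12.6 and 11.5 CPM with scramble siRNA (3.39 ± 0.13). That list rose in 10 and fell in 10 of 26 cases (9 fell without scramble replicate 1), with the serine synthesis genes Psat1 at 49.6, 44.9 and 45.1 CPM with Itgav siRNA against 162, 150 and 154 CPM with scramble siRNA (-1.74 ± 0.069) and Phgdh and Mthfd2 falling (-1.33 ± 0.072 and -1.13 ± 0.065). Of 23 hypoxia and glycolysis genes 9 rose and 9 fell (8 fell without scramble replicate 1): Adm, adrenomedullin, was at 13.8, 10.3 and 11.8 CPM with Itgav siRNA against 54, 59 and 54.8 CPM with scramble siRNA (-2.23 ± 0.088) and Gapdh fell (-0.50 ± 0.047), and Bnip3 and Ndrg1 rose (1.01 ± 0.052 and 1.17 ± 0.1).

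**Figure D4:**
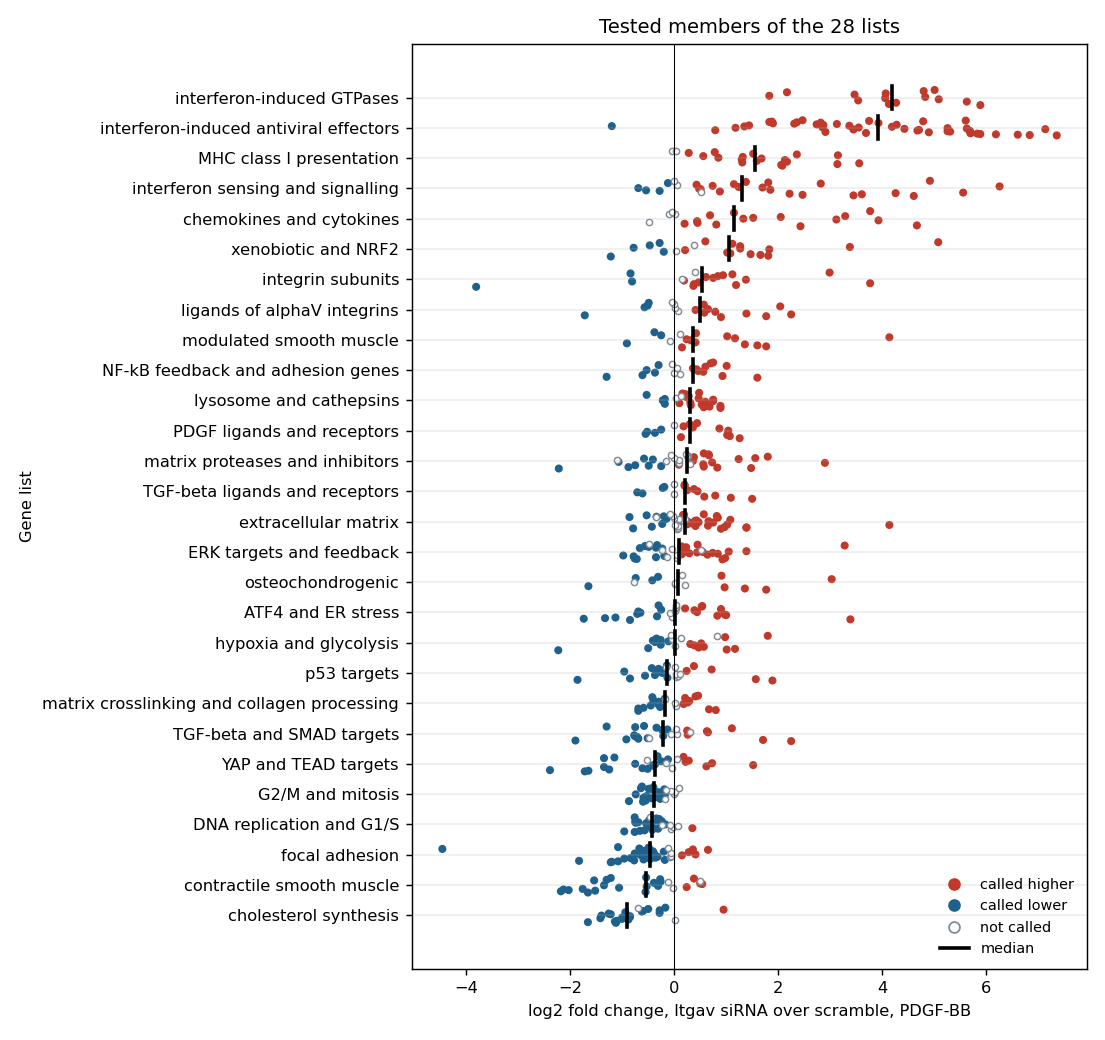
Rows are the 28 gene lists, ordered by median; the horizontal axis is the log2 fold change of Itgav siRNA over scramble under PDGF-BB; points are tested members, filled where called, and the bar is the median. The interferon lists stand at the top with medians of 4.2 and 3.93, and contractile and cholesterol lists at the bottom with -0.54 and -0.90.

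Of the genes ranked for the largest changes, Itgav fell furthest and Armcx2 next. Armcx2, an armadillo-repeat protein, was at 10.1, 9.61 and 9.48 CPM with Itgav siRNA against 112, 121 and 118 CPM with scramble siRNA (-3.59 ± 0.061). Nkain4 was at 6.45, 5.66 and 5.17 CPM with Itgav siRNA against 52.4, 57.3 and 55.9 CPM with scramble siRNA (-3.26 ± 0.09). Crct1 was at 25.2, 22.3 and 24.4 CPM with Itgav siRNA against 194, 208 and 209 CPM with scramble siRNA (-3.09 ± 0.065). The siRNA libraries of each were all lower, as the ranking required. Rbpms2, an RNA-binding protein of smooth muscle, was at 5.33, 4.74 and 5.06 CPM with Itgav siRNA against 37.2, 35.3 and 34.2 CPM with scramble siRNA (-2.82 ± 0.083), and Map3k7cl, Slc1a6, Gnal, Akap5 and Pbp2 fell 7.59, 6.67, 6.39, 6.10 and 5.80-fold.

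The siRNA effect under PDGF-BB was then set beside that in the other media, and the 3 comparisons share no library. Of the 9394 genes called under PDGF-BB, 5191 (55.3%) were called in the same direction under TGF-β, where 7662 were called (48.4%, with 67.7% of them shared), and 538 in the opposite one; in unstimulated cells 6478 (69%) were shared of 8457 called (53.4%, with 76.6% shared) and 194 opposite. Across the 15832 genes the log2 fold changes correlated with a Pearson r of 0.576 and a Spearman rho of 0.571 with TGF-β and 0.754 and 0.736 with unstimulated cells, genes not being independent replicates. The difference itself passed for 5196 genes against TGF-β (32.8%; 2439 higher, 15.4%, and 2757 lower, 17.4%, under PDGF-BB) and for 2981 against unstimulated cells (18.8%; 1505 higher, 9.51%, and 1476 lower, 9.32%).

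The interferon rise was larger under PDGF-BB than under TGF-β. Antiviral effectors had medians of 3.93 under PDGF-BB, 2.40 under TGF-β and 3.62 in unstimulated cells; the difference from TGF-β passed for 31 of 45 as larger and 1 as smaller (32 and 1 without scramble PDGF-BB replicate 1), and that from unstimulated cells for 3 as larger and 0 as smaller. That count depends on scramble unstimulated replicate 1, in which Ifit1 stood at 8.66 CPM against 49.8 and 44.7 CPM in replicates 2 and 3. Without it 19 of 45 passed as larger, against 1 to 3 with any other library left out. Without the same library the genes that sense nucleic acid or pass on the signal went from 4 to 11 of 28 larger, and the GTPases from 0 to 6 of 14. MHC class I genes had medians of 1.56 under PDGF-BB, 0.45 under TGF-β and 1.66 without stimulus, with 15 of 20 larger than under TGF-β and 1 smaller (16 and 1 without scramble PDGF-BB replicate 1). Ifit3 differed by 2.71 from TGF-β (adjusted p = 6.2e-08).

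Most cell cycle genes fell under PDGF-BB and without stimulus, while under TGF-β fewer were called and the list medians were near 0. Of all genes tested, 24.1% were called higher and 24.3% lower under TGF-β. Of the G2/M list 22 fell and 0 rose under PDGF-BB, 2 fell and 4 rose under TGF-β, and 24 fell and 0 rose without stimulus. Of the G1/S list 22 fell and 1 rose under PDGF-BB, 5 fell and 8 rose under TGF-β, and 19 fell and 1 rose without stimulus, with medians for G2/M of -0.38, 0.03 and -0.49 and for G1/S of -0.42, 0.07 and -0.36 under PDGF-BB, TGF-β and no stimulus. The difference from TGF-β passed as lower for 18 of 28 G2/M and 18 of 29 G1/S genes (20 and 17 without scramble PDGF-BB replicate 1), and none passed as higher. Contractile genes had medians below 0 in all 3 media (-0.54 under PDGF-BB, -0.75 under TGF-β and -0.45 without stimulus). Here the fall of Acta2 was larger under PDGF-BB, at -1.66, than the -1.04 under TGF-β and -1.02 without stimulus (differences -0.62, adjusted p = 5.9e-08, and -0.63, adjusted p = 1.6e-07), as was that of Tagln (-1.06, adjusted p = 2e-09, and -0.78, adjusted p = 6e-07), while Myh11 fell less than under TGF-β (1.40, adjusted p = 1e-05). Against unstimulated cells 7 of 26 contractile genes were lower and 0 higher, against TGF-β 5 lower and 9 higher (5 and 8 without scramble PDGF-BB replicate 1). In the same order of media, cholesterol genes had medians of -0.90, -0.65 and -0.62, and matrix genes of 0.20, 0.19 and 0.02, 20 of 45 matrix genes being higher than in unstimulated cells and 3 lower (19 and 4 without scramble PDGF-BB replicate 1, 19 and 5 without Itgav siRNA PDGF-BB replicate 2).

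**Figure D5:**
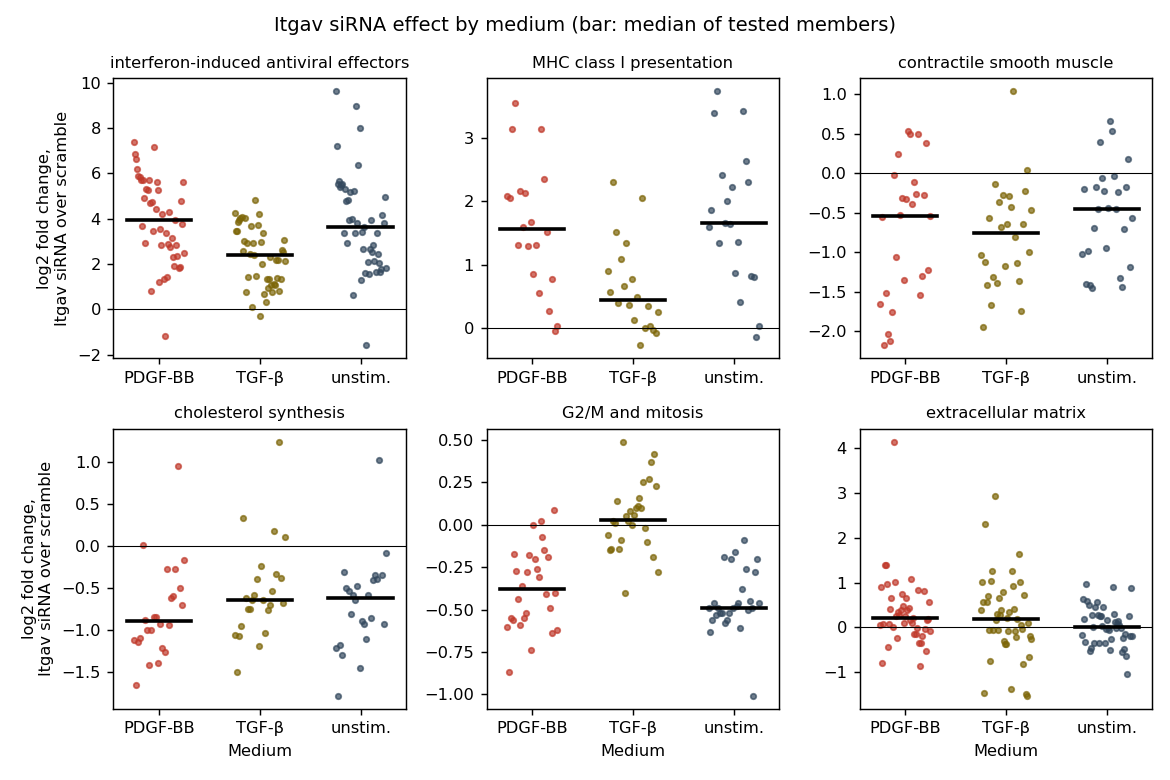
Each panel is a gene list; horizontal axis, medium; vertical axis, log2 fold change of Itgav siRNA over scramble in that medium; points are tested members and the bar is the median. Antiviral and MHC class I genes sit lower under TGF-β than in the other media, G2/M genes sit near 0 under TGF-β (0.03) and below it elsewhere (-0.38 and -0.49), and contractile and cholesterol genes lie mostly below 0 in each.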

How the data were processed

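RNA from 18 libraries in 6 groups of 3 was sequenced. The submitters' processing notes name HISAT2 2.2.1, StringTie 2.1.6 and the build mm10. Before deposit, the authors made from the reads a table of estimated counts per gene, not normalised, for 57180 genes, of which 25535 were at 0 in every library, and 76.2% of the values above 0 were whole numbers. The annotation release, and how strand was used, were not stated in those sources. GENCODE M21 held 90.7% of the identifiers and gave coordinates on GRCm38. A transcript table and the authors' group means were not used.

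Counts were rounded and the 18 libraries fitted together in edgeR 4.0.16 (R 4.3.3, limma 3.58.1) with TMM normalisation, filterByExpr at a minimum count of 10 (15832 genes), a mean per group and quasi-likelihood F-tests with 12 residual degrees of freedom, Benjamini-Hochberg adjusted over all genes tested. An SE is the size of a log2 fold change divided by the square root of F. Replicates within each PDGF-BB group differed by more than counting noise (chi-square per degree of freedom 4.08 to 12.6), so each library was counted as 1 sample; this does not show that they came from separate cultures.

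Members and lists were chosen with earlier results of these data known. The naming rule took Itgav, a panel of 18 genes, the 10 largest rises and the 10 largest falls. The rises and falls had at least 5 CPM, no overlap and a call without scramble PDGF-BB replicate 1. It also took up to 4 genes with the smallest p in each list with at least 3 called members. For each of 2 differences between media it took the 5 genes in each direction with the smallest p. Genes with Gm, Rik, AC, AL or BC names were left out of the largest changes and of the differences. That gave 143 genes, not all of which are reported here, and others were named after their values were seen. Intervals and floors (3 counts) cover counting error only. Alternatives were DESeq2 1.42.0, its size factors within edgeR, no filter on low counts, a filter at 1 CPM on average, a replicate block, fits of the compared groups alone, and fits without each library. Tables and plots used Python 3.11.15 with matplotlib 3.10.9, numpy 2.4.6, pandas 2.3.3 and scipy 1.17.1.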

Additional observations from a re-analysis of the deposited data

Results flagged for a closer look

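For 43 differences the effect of Itgav siRNA under PDGF-BB was itself tested against that in another medium and passed (edgeR's quasi-likelihood interaction test, adjusted p of 0.016 or less). They were chosen among the panel and the 5 smallest p in each direction, so they are not a sample of all genes. Each value below is the log2 fold change under PDGF-BB minus that in the other medium, and the effects in the 2 media are given beside the first gene of each kind. All 43 stayed called with each of 12 libraries left out in turn, except Itgb1 against unstimulated cells, which was lost in 2 of the 12 (largest adjusted p 0.057, without scramble unstimulated replicate 2).

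Against TGF-β, Pmp22, a myelin and growth arrest protein, had a higher effect under PDGF-BB by 2.11, being at 0.14 under PDGF-BB and -1.97 under TGF-β. Slc22a23 (2.47), Etv1 (2.16), Efemp1 (1.54) and Tmt1a (1.51) were higher in the same sense, and all 4 had a negative effect under TGF-β. Smaller positive differences were those of Itgb8 (1.40), Myh11 (1.40), Klf4 (0.90), Pdgfra (0.65), Itgav (0.47) and Itgb3 (0.28).

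Akap5, a kinase anchor protein, had a difference of -2.41 from TGF-β, with effects of -2.61 under PDGF-BB and -0.20 under TGF-β. Nes, nestin, fell under PDGF-BB and rose under TGF-β (-0.92 and 1.10, difference -2.02), and so did Masp1 (-0.77 and 0.89, difference -1.67) and Eln (-0.79 and 0.56, difference -1.34). Ankrd1 (-1.66), Ccn1 (-1.46), Tagln (-1.06) and Acta2 (-0.62) fell more under PDGF-BB than under TGF-β. Mki67 (-0.54) fell under PDGF-BB and was not called under TGF-β (-0.60 and -0.06). Spp1 (-0.95) and Itgb5 (-0.56) rose less. Col1a1 differed by -0.34.

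Against unstimulated cells, Slc22a23 had effects of 0.86 under PDGF-BB and -1.42 without stimulus, a difference of 2.29. Kirrel3 (2.2) and Alcam (1.34), both adhesion proteins, likewise had opposite signs. Gadd45a (1.57), Spp1 (1.49), Itgb8 (1.05), Itgav (0.58), Itga5 (0.48), Itgb3 (0.44), Pdgfrb (0.20) and Itgb1 (0.18) had positive differences. Angptl7 fell under PDGF-BB and rose without stimulus (-0.67 and 0.94, difference -1.61). Eln was called lower under PDGF-BB (-0.79) against 0.18 without stimulus, a difference of -0.97. Wwc1 (-1.15), Ccn1 (-1.0), Cnn2 (-0.96), Cavin2 (-0.82), Tagln (-0.78) and Acta2 (-0.63) fell more under PDGF-BB, and Itgb5 (-0.53) rose less.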

How the results depend on the processing

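The number of genes called for Itgav siRNA under PDGF-BB, 9394, ran from 8658 to 9142 when each of the 6 libraries was left out in turn and from 8754 to 9513 under the other settings. The difference from TGF-β (5196) ran from 4387 to 5572 with a library left out and from 4788 to 5407 otherwise, and that from unstimulated cells (2981) from 2155 to 3471 and from 2705 to 3349. Each of these counts stayed within 1.5 times of its value in the report. For the 143 genes picked by the naming rule under 12 settings each, 1712 values kept direction and side of the threshold, and 0 reversed; most of these genes were picked for a small p or a large change without overlap, so this is no measure of stability. Klf4 lost its call with no low-count filter (0.14, adjusted p = 0.053). Efemp1 gained one in 3 settings, namely the mean of at least 1 CPM, the replicate block, and without scramble PDGF-BB replicate 2. Among the list counts, the antiviral effectors that differed from unstimulated cells went from 3 to 19 without scramble unstimulated replicate 1, the sensing and signalling genes from 4 to 11 and the GTPases from 0 to 6. The cause was not tested.

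Deviations from the group means correlated at 0.0835, 0.0182 and 0.0327 between libraries with the same number (1, 2 and 3). Between libraries with different numbers the values ran from -0.0924 to 0.0755. A fit with the replicate block called 9513 genes, against 9394 without it. With 3 libraries a group, these values cannot show whether the replicate numbers pair the libraries.

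Depth limits genes with few counts, such as Mx1, Oas1g, Areg, Lum and Kank4, whose intervals cover counting error and not the wider spread between replicates, and Ifnb1, for which only a lower bound is given.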

Other observations

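Genes in none of the lists also changed by large amounts. They were chosen by size after their values were seen, among called genes without overlap that were also called without scramble PDGF-BB replicate 1. Their separation between the groups was therefore fixed by the choice. Among the 12 largest rises with at least 5 CPM, Cd274, the immune checkpoint ligand PD-L1, was at 20.7, 28 and 17.7 CPM with Itgav siRNA against 1.51, 1.44 and 1.66 CPM with scramble siRNA (3.84 ± 0.22). Rnf213, a large ubiquitin ligase, was at 761, 1070 and 757 CPM with Itgav siRNA against 72.8, 97.2 and 82 CPM with scramble siRNA (3.36 ± 0.14). Both were separate between the groups, as that choice required. Ifi207, of the interferon-inducible p200 family, was at 62.6, 77.4 and 52.1 CPM with Itgav siRNA against 0.757, 2.68 and 1.62 CPM with scramble siRNA (5.25 ± 0.22). Mndal, of the same family, was at 80.8, 83.9 and 59.9 CPM with Itgav siRNA against 5.30, 4.27 and 4.35 CPM with scramble siRNA (4.01 ± 0.2). Prl2c2, a prolactin family gene also called proliferin, was at 54.2, 47.8 and 53 CPM with Itgav siRNA against 2.02, 2.42 and 3.01 CPM with scramble siRNA (4.37 ± 0.21). Ifi207, Mndal and Prl2c2 may share reads with relatives in their families, so the caution on close copies holds for them too. The lipocalin Apod was at 15.2, 14.2 and 8.04 CPM with Itgav siRNA against 0.606, 0.566 and 0.647 CPM with scramble siRNA (4.35 ± 0.26). Megf10, an engulfment receptor, was at 51.7, 55.5 and 57.6 CPM with Itgav siRNA against 5.40, 5.30 and 4.72 CPM with scramble siRNA (3.42 ± 0.084). Each of these 7 also rose in unstimulated cells, and all but Apod under TGF-β, where Apod changed by 0.71 and was not called. Xylt1 and Enpep rose too (3.34 ± 0.15 and 3.52 ± 0.16).

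Among the largest falls in no list, Abat, which breaks down GABA, was at 23.1, 23.1 and 24.6 CPM with Itgav siRNA against 116, 129 and 121 CPM with scramble siRNA (-2.37 ± 0.062). Snx7, a sorting nexin, was at 21.8, 20.1 and 22.3 CPM with Itgav siRNA against 101, 99.7 and 102 CPM with scramble siRNA (-2.24 ± 0.054). Ctnnd2, δ-catenin, was at 7.33, 6.95 and 7.08 CPM with Itgav siRNA against 34.7, 36.8 and 36.4 CPM with scramble siRNA (-2.34 ± 0.074). Klhdc8a was at 7.87, 6.35 and 8.20 CPM with Itgav siRNA against 48.3, 39 and 39 CPM with scramble siRNA (-2.50 ± 0.12). None of these 4 overlapped between the groups, as the choice required. Cdh3, P-cadherin, was at 2.05, 2.30 and 2.02 CPM with Itgav siRNA against 9.59, 8.65 and 9.53 CPM with scramble siRNA (-2.12 ± 0.13), with effects of -0.39 under TGF-β and -0.02 in unstimulated cells.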
